A study of Mus musculus with 29 samples.

Results

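The genes described here are 49 genes of mitosis and the kinetochore, followed in alveolar septa of the mouse lung from late gestation to weaning. They were taken by symbol from a list grouped by function, matched to NCBI gene IDs, and make up 49 of the 22779 gene IDs of the deposited matrix. All 49 were found, none stood on more than 1 line, and all 49 reached 1 FPKM in 4 or more of the 29 libraries, the filter used for tests. FPKM counts fragments scaled by transcript length and by the library's mapped reads, so levels of different genes are given per length.

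Wild type C57BL/6 mice gave frozen lungs from which septa were dissected with a laser, and each animal gave its own RNA library. The cutting avoided large vessels and bronchi but took whole septa with epithelium, capillaries, fibroblasts and blood. The 29 libraries were placed in 6 groups by age: E16.5 (2 embryos), E18.5 (2 embryos), P0.5-P2.5 (2 pups at each of 4 ages, 8 in all), P4-P10 (2 pups each at P4, P5, P7 and P10), P13.5-P15 (4 pups) and P19-P28 (5 pups, ages P19, P23 and P28). The labels name no treatment and no other allele, litters are not given, and the labels give 2 animals at each age except P28, which has 1. The design text of the series does not name E18.5, which rests on the labels of those 2 libraries.

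A dividing cell enters mitosis when cyclin B1 and cyclin A2 activate the kinase Cdk1, condenses its chromosomes with condensin and topoisomerase II, and attaches them to the spindle through kinetochores. The spindle checkpoint holds the cell until all chromosomes are attached, after which the anaphase-promoting complex, through Cdc20, releases sister chromatids, and the central spindle and the contractile ring divide the cytoplasm. Transcripts of these genes are made mainly in late S phase and G2 under the MuvB complex with B-Myb and FoxM1, and are kept low in resting cells. In the lung, cells divide in the fetal sacs and again when the alveolar septa grow out after birth. In bulk septa, fewer dividing cells and less of these transcripts per dividing cell cannot be told apart.

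The promoters of these genes are known for 2 short elements, the cell cycle genes homology region (CHR, searched as TTTGAA or TTCGAA on both strands) and CCAAT boxes (CCAAT on both strands). RefSeq windows of GRCm38.p6, from 250 bases before to 50 after a gene's start, were matched for 40 of the 49 members. A CHR was found in 75% of the 40 (30 genes), against 21.7% of the 27025 genes with a window and 24.2% of 33 genes of DNA replication. A CCAAT box was found in 75% of the members, 41.1% of all genes and 57.6% of the replication genes, and both elements in 67.5%, 8.61% and 15.2%. TTCGAA reads the same on both strands, matches of the 2 elements may share letters, and a match describes letters, not a bound site. The 3 members below had the largest F statistics across age groups among those with a CHR in the 250 bases upstream, and are shown for that reason. Ncapd2, next in that order, is not shown, because its window lies inside the longest model of the gene. Kif11 encodes the motor that pushes spindle poles apart, Top2a encodes topoisomerase II alpha and Cdk1 the mitotic kinase. Starts are those of the promoter table, which for Top2a lies a few bases inside the gene's outer end. Capitals mark CHR and CCAAT letters on either strand (TTCAAA and ATTGG are the same elements on the other strand).
Kif11, chr19:37376132-37376381, plus strand: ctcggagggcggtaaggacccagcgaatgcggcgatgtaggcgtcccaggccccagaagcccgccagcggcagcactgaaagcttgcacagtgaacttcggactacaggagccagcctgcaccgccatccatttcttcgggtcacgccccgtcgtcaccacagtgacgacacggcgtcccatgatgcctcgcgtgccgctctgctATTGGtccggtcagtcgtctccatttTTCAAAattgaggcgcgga
Top2a, chr11:99024190-99024439, minus strand: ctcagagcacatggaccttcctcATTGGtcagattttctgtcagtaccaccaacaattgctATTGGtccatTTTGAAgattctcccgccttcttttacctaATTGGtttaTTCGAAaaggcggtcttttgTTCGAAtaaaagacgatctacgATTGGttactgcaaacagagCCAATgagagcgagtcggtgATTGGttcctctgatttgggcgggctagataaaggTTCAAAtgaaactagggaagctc
Cdk1, chr10:69352913-69353162, minus strand: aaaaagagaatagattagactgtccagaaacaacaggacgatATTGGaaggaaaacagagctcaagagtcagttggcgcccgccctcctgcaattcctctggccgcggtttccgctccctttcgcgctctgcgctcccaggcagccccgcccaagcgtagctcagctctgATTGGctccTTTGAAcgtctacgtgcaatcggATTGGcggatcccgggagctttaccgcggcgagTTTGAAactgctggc
In Kif11 the CHR began 19 bases and the CCAAT box 45 bases before the start. In Cdk1 the CHR nearest to the start began 15 bases and its nearest CCAAT box 48 bases before it.

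Some libraries stood apart and are named before the results. Of 8621 coding genes whose median FPKM was 5 or more, 416 were listed at 0 in P10 pup a, 577 in P19 pup d and 242 in P19 pup f, and so were 6, 23 and 18 of the 49 members. An exact 0 can therefore be a failed estimate, and a member at 0 is given as listed at 0. P0.5 pup f had higher values than its age mate pup e for 48 of the 49 members, with a median log2 difference of 2.15, while over all genes tested the median difference was 0.023. Over genes outside the cell cycle lists, P0.5 pup f correlated with P2.5 pup i (r = 0.914), P7 pup d (0.902) and P5 pup b (0.901) more closely than with pup e (0.886). P15 pup c was higher than P15 pup e for 46 of the 49 members (median log2 difference 1.23), and it correlated best with that age mate (r = 0.916). The signs of Xist and 4 genes of the Y chromosome went against the labelled sex in 14 of the 29 libraries, so sex was not used. Total FPKM ran from 318176 to 457706 and 10114 to 13059 genes reached an FPKM of 1.

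The members were high at E16.5, lower at E18.5, lowest among the early ages at P1 and P1.5, high again at P4 and P5, and then lower through P23. The mean of log2(FPKM + 1) over the 49 members was 4.99 and 5.09 in the 2 libraries of E16.5 and 3.57 and 3.59 at E18.5. It was 1.84 in P0.5 pup e, 3.97 in P0.5 pup f, 1.68 to 2.03 at P1, 1.88 to 2.16 at P1.5 and 2.62 to 2.69 at P2.5. It was 4.186 and 4.204 at P4, 3.92 and 3.98 at P5, 3.06 and 3.38 at P7, and 2.56 and 2.70 at P10. At P13.5 it was 1.64 and 1.95, at P15 it was 2.02 in pup e and 3.20 in pup c, and at P19 and P23 it lay between 1.32 and 1.40. The single library of P28 stood at 2.41, above all 4 libraries of P19 and P23.

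**Figure D1:**
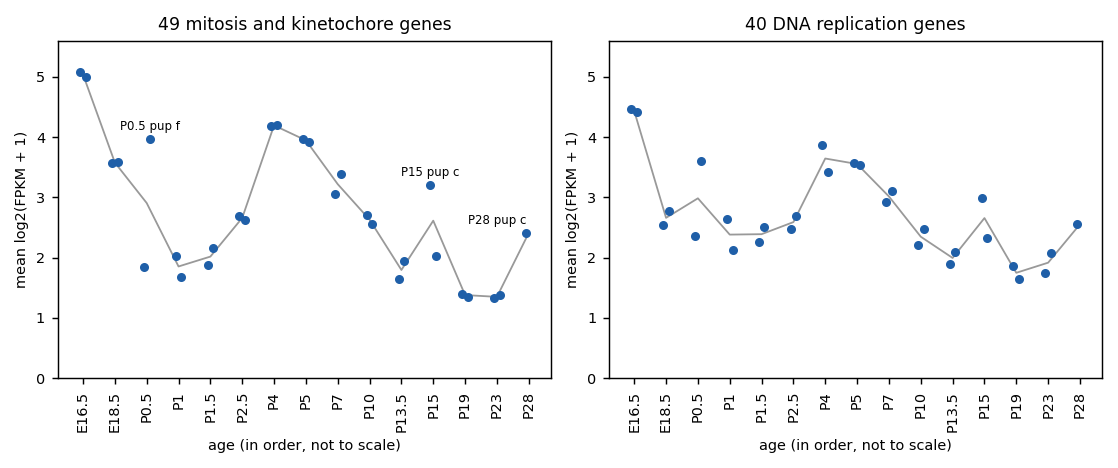
Mean log2(FPKM + 1) over the 49 mitosis and kinetochore genes (left) and over 40 DNA replication genes (right) in each of 29 libraries, by age in order and not to scale. Each point is 1 animal and the line joins age means, and the members' age mean was 5.04 at E16.5 and 1.85 at P1 and stood at 4.195 at P4, with P0.5 pup f, P15 pup c and P28 pup c above their neighbours.

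Of the 49 members, 44 had their highest age mean at E16.5. The exceptions were Racgap1 and Incenp, highest at P5, Birc5 at P4, Ube2c at P10 and Pttg1 at P13.5. Both E16.5 libraries lay above all 27 other libraries for 39 members, where 6.81% of all genes tested had that order. The 4 libraries of P4 and P5 lay above all 4 of P1 and P1.5 for 44 members, against 5.38% of all genes. They lay above all 8 libraries of P0.5 to P2.5, P0.5 pup f included, for 11 members, against 1.16% of all genes. These orders describe the libraries and were set out with the age pattern already known.

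Limma's F test for any difference among the 6 groups, fitted on log2(FPKM + 1) of 14616 genes with Benjamini-Hochberg adjustment, called 45 of the 49 members, where 33.1% of all genes were called. The 4 members not called were Mad2l1 (adjusted p = 0.0984), Ube2c (0.126), Nek2 (0.137) and Pttg1 (0.237). The largest statistics belonged to Ccna2 (F = 21.6, adjusted p = 5.01e-07), Anln (F = 14.4), Kif11 (F = 13.8) and Ttk (F = 13.8). Each class of members was called in full except the mitotic kinases (4 of 5), the checkpoint genes (3 of 4) and the anaphase genes (2 of 4). Across the 29 libraries, a member's log2 level correlated with the mean of the other 48 at a median r of 0.89. The correlation was over 0.9 for 23 members and over 0.8 for 39, highest for Top2a (0.962) and lowest for Ube2c (0.405) and Pttg1 (-0.378). The points of these correlations share libraries and depth.

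**Figure D2:**
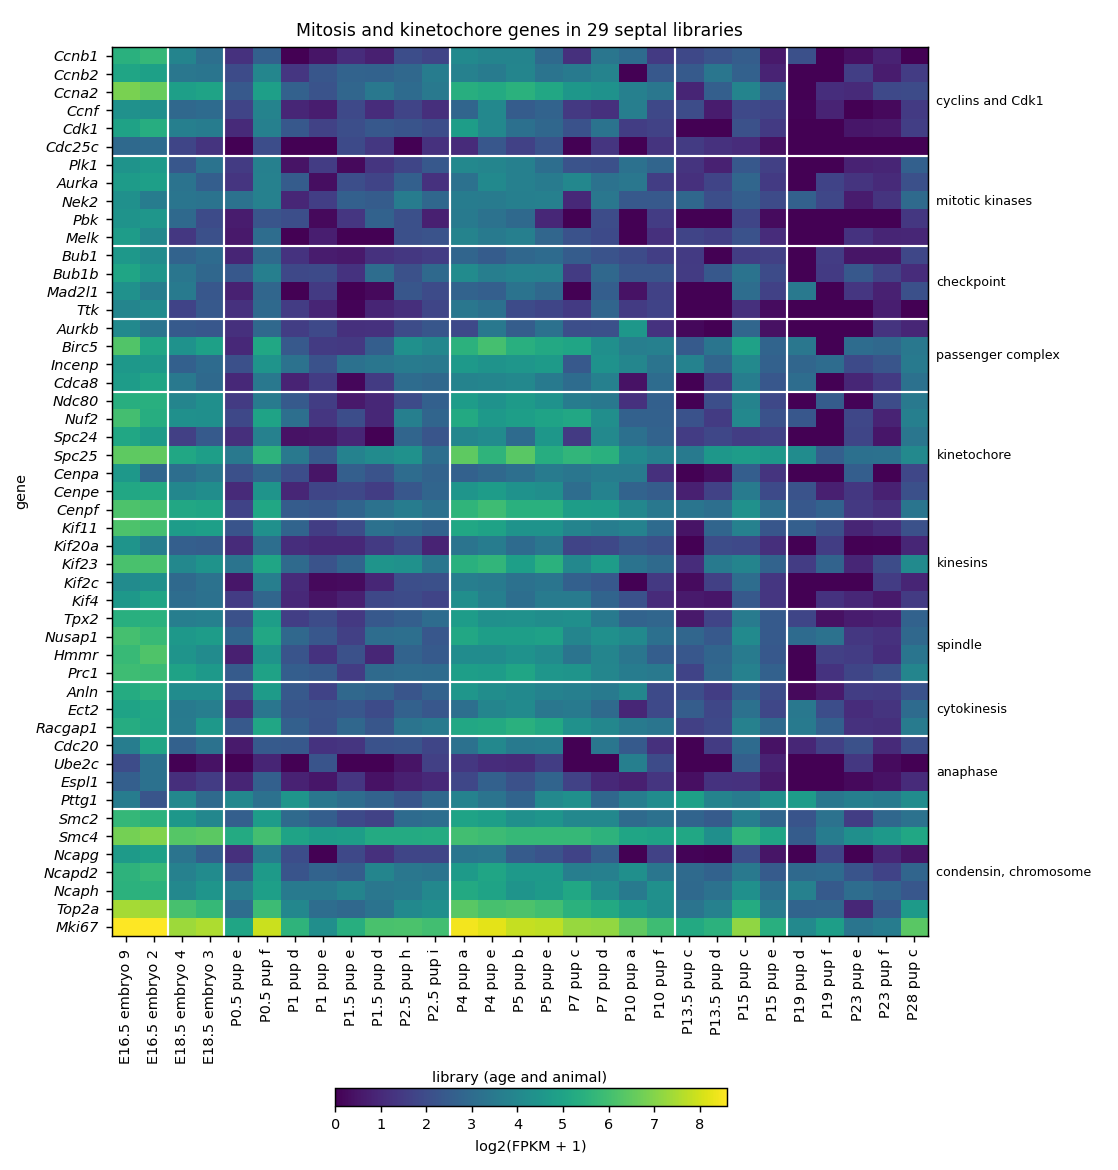
Log2(FPKM + 1) of the 49 members (rows, by functional class) in the 29 libraries (columns, by age and animal), with white lines between classes and between the 6 age groups. The bright columns are the 2 of E16.5, P0.5 pup f and the 4 of P4 and P5, and the darkest cells include the 23 members listed at 0 in P19 pup d.

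From E16.5 to E18.5 the levels of 48 of the 49 members were lower, with a median log2 difference of -1.47 (2.77-fold on the scale of FPKM + 1), but no member passed the test across all genes. With 2 animals on each side, limma called 0 members after adjustment and 15 at an unadjusted p under 0.05, all lower, where 2.09% of all genes were called higher and 1.62% lower. In a fit of 15 ages 2 members were called lower. Mki67, the proliferation antigen that coats mitotic chromosomes and the member with the highest mean level, had an FPKM of 377.2 and 386.1 at E16.5 and 161.7 and 182.9 at E18.5. Ccna2, cyclin A2, had 117.0 and 95.9 at E16.5 and 28.1 and 30.4 at E18.5. Top2a had 172.6 and 159.9 against 66.7 and 52.9. In each of these 3 genes the 2 ages did not overlap. Pttg1, securin, which holds separase inactive until anaphase, was the exception, with 11.1 and 3.83 at E16.5 and 15.1 and 6.83 at E18.5, overlapping values. Cell type markers also differed at E16.5: 4 heart muscle markers summed to 926 and 1984 FPKM there and to at most 412.1 in any later library, and 2 of these 4 were called lower at E18.5. Markers of alveolar type 1 cells summed to 84.7 to 89.7 at E16.5 and 491.5 to 578.8 at E18.5, with 3 of 5 called higher. Markers of alveolar type 2 cells summed to 2172 to 5368 and then 13500 to 16650, with 4 of 5 called higher, as were 3 of 5 endothelial markers and 1 of 4 airway markers, and 3 of 5 mesenchymal markers were called lower. Their part in the members' levels was not tested.

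Between E18.5 and the first days after birth, 47 of the 49 members stood lower, with a median log2 difference of -1.23 (2.34-fold). Limma called 3 of them lower and none higher, against 2.02% of all genes lower and 4.36% higher, and 20 had an unadjusted p under 0.05. The 3 were Ccnb1, cyclin B1, Kif11, the bipolar spindle motor, and Cenpf, a large protein of the outer kinetochore. Ccnb1 stood at 13.7 and 7.81 at E18.5 and at 0 to 5.22 in the 8 pups of P0.5-P2.5 (median 1.23), listed at 0 in P1 pup d. Its log2 change was -2.26 ± 0.69 (SE, adjusted p = 0.0474), and every pup lay below both embryos. Kif11 stood at 25.7 and 28.1 at E18.5 and at 1.93 to 19.0 in the pups, with a log2 change of -2.07 ± 0.63 (adjusted p = 0.045) and no overlap. Cenpf stood at 34.6 and 32.1 against 2.33 to 33.6, so that P0.5 pup f reached into the E18.5 range, with a log2 change of -2.03 ± 0.63 (adjusted p = 0.048). The count of 3 rested on few libraries: it was 12 without P0.5 pup f, 6 without P28 pup c and 5 without P19 pup d. It was 0 or 1 without any of 16 others, namely either embryo of E16.5 or E18.5, P0.5 pup e, either pup of P1 or P1.5, P2.5 pup i, P5 pups b and e, P7 pup d, either pup of P13.5 and P15 pup e. Without the 3 high libraries P0.5 pup f, P15 pup c and P28 pup c it was 14, and in a fit of 15 ages it was 11. With a pseudocount of 0.1, or with no filter on low values, it was 0. In this comparison 2 of 5 type 1 and 2 of 5 endothelial markers were called higher, and of both the 5 type 2 and the 5 mesenchymal markers 1 was called higher and 1 lower. Of the mesenchymal markers, Col1a1 was called higher (limma log2 change 1.40, adjusted p = 0.00508) and Pdgfra lower (log2 change -1.60, adjusted p = 6.67e-05). The part of these cell type markers in the members' levels was not tested.

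From P4 the members stood higher again. From P0.5-P2.5 to P4-P10 the log2 change was above 0 for all 49, with a median of 1.18 (2.26-fold) against -0.031 over all genes, and limma called 15 members higher and none lower. The background was 1.1% of all genes called higher and 1.78% lower, and 34 members had an unadjusted p under 0.05. The 15 comprised 4 of the 7 kinetochore genes (Spc24, Spc25, Cenpe and Cenpf), 4 of the 7 condensin and chromosome genes (Smc2, Ncapd2, Top2a and Mki67), both Ccna2 and Ccnb1 of the 6 cyclin and Cdk1 genes, 2 of the 5 kinesins (Kif11 and Kif4), 2 of the 4 spindle genes (Nusap1 and Hmmr) and Birc5 of the 4 passenger genes. None of the mitotic kinases, checkpoint, cytokinesis or anaphase genes was called. Their median log2 changes were 1.32, 0.866, 1.04 and 0.704, where the cyclin and Cdk1 genes, with 2 called, had 0.82. The kinases Plk1 and Aurka had limma adjusted p of 0.0501 and 0.0588. No difference between classes was tested.

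Birc5, survivin of the chromosomal passenger complex, showed the largest change. Its FPKM ran from 1.00 to 33.9 in the 8 pups of P0.5-P2.5 (median 4.60) and from 11.7 to 66.1 in the 8 of P4-P10 (median 33.7), a log2 change of 2.08 ± 0.56 (adjusted p = 0.0382). At P4 and P5 its 4 values, 45.2, 66.1, 42.3 and 35.4, lay above every value from P0.5 to P2.5. Spc24, which anchors the Ndc80 complex in the kinetochore, stood at 0 to 12.6 before P4 (listed at 0 in P1.5 pup d) and at 14.4, 16.6, 7.07 and 22.3 at P4 and P5. Its log2 change was 1.90 ± 0.52 (adjusted p = 0.0418), and only P0.5 pup f reached into the P4 to P5 range. Cenpf ran from 2.33 to 33.6 in P0.5-P2.5 and stood at 48.2, 59.2, 42.5 and 43.1 at P4 and P5, a log2 change of 1.85 ± 0.40 (adjusted p = 0.00805). Ccnb1 stood at 16.0, 13.7, 13.8 and 6.69 at P4 and P5, above all 8 earlier pups, with a log2 change of 1.73 ± 0.44 (adjusted p = 0.027).

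Mki67 stood at 347.1, 303.6, 230.6 and 216.3 at P4 and P5, where the 8 earlier pups had 18.2 to 239.8. Only P0.5 pup f, at 239.8, lay within the P4 to P5 range, and the next highest early pup had 71.2. Within P4-P10 the levels were uneven: Mki67 had 154.0 and 146.4 at P7 and 88.5 and 59.99 at P10. The highest values of the group P4-P10 were thus those of P4 and P5.

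The count of 15 depended on single libraries. It was 27 without P0.5 pup f, and 1 to 9 without any of 11 others: P0.5 pup e, either pup of P1 or P1.5, P2.5 pup h, either pup of P4 or P5, and P7 pup d. It was 24 in a fit of 15 ages, 9 in a fit of only the 2 groups, 2 with a pseudocount of 0.1 and 1 with no filter on low values. Cenpf stayed past the threshold in every one of these fits. Beside this comparison, 3 of 5 mesenchymal markers were called higher, with sums of 570.7 to 928.1 in P0.5-P2.5 and 804.3 to 1284 in P4-P10. Of 5 alveolar type 1 markers 3 were called lower, with sums of 671.5 to 1245 and 278.0 to 736.4. Of 5 alveolar type 2 markers 2 were called lower, with sums of 8355 to 21530 and 5902 to 13890. Their part in the members' change was not tested.

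**Figure D3:**
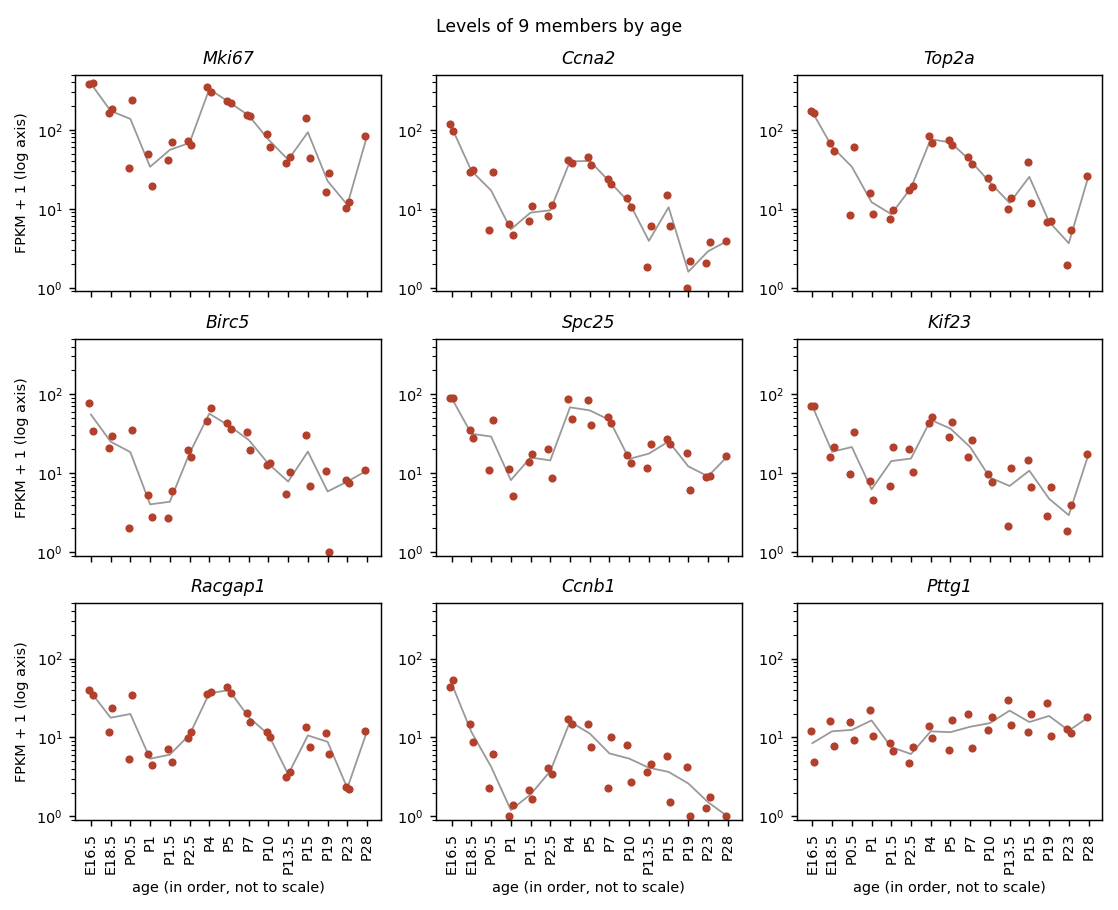
FPKM + 1 on a log axis for 9 members by age, in order and not to scale, with each point an animal and a line through the age means. In 8 of the 9 the points of P4 and P5 lie well above those of P1, while Pttg1 stays between 3.78 and 28.5 FPKM at all ages.

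The level at P4 and P5, as a share of the mean of the 2 embryos of E16.5, varied among members. No difference between members was tested. The mean of the 4 libraries of P4 and P5 was 50.4% of the E16.5 mean for the median member, against 33.3% at E18.5 and 8.3% at P1 and P1.5. Of the 49 members, 12 stood at less than 40% of E16.5, 26 at between 40% and 60%, and 11 at more than 60%. At the top, Racgap1, whose product acts at the central spindle, stood at 101.9% of its E16.5 mean and Incenp, the scaffold of the passenger complex, at 98.6%. Birc5 stood at 87.3%, the centrosomal kinase Nek2 at 77.9%, Spc25 at 72.8% and Mki67 at 71.9%. The 2 embryos lay far apart for Birc5 (75.5 and 32.7) and Nek2 (18.9 and 11.2), so these shares are loose. At the bottom were the condensin subunit Ncapg (25.3%), Ube2c (25.6%), which feeds ubiquitin to the anaphase-promoting complex, Ccnb1 (26.6%), the spindle protein Hmmr (27.7%) and the checkpoint kinase Bub1 (30.0%). Pttg1 had 144.7%.

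By class, the median member stood at 69.3% among the 4 passenger genes, 57.9% among the 4 anaphase genes, 57.4% among the 7 kinetochore genes, 55.6% among the 5 kinesins, 50.7% among the 5 mitotic kinases and 50.5% among the 7 condensin and chromosome genes. It stood at 46.7% among the 4 spindle genes, 41.8% among the 3 cytokinesis genes, 39.7% among the 4 checkpoint genes and 38.8% among the 6 cyclin and Cdk1 genes. The anaphase median lies among widely spread members, from 25.6% for Ube2c to 144.7% for Pttg1. These percentages are descriptions of a few libraries, and no difference between classes was tested. For Racgap1 the single values were 39.4 and 33.3 at E16.5 and 34.3, 36.1, 42.6 and 35.1 at P4 and P5, overlapping, and for Ccna2 they were 117.0 and 95.9 against at most 43.6, not overlapping. In 40 of the 49 members the mean of P4 and P5 stood above that of E18.5. The other 9 were Cenpa, Smc4, Mad2l1, Prc1, Kif11, Bub1, Hmmr, Ncapg and Pttg1, and the means of Prc1 were 45.4% of E16.5 at P4 and P5 and 45.7% at E18.5.

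**Figure D4:**
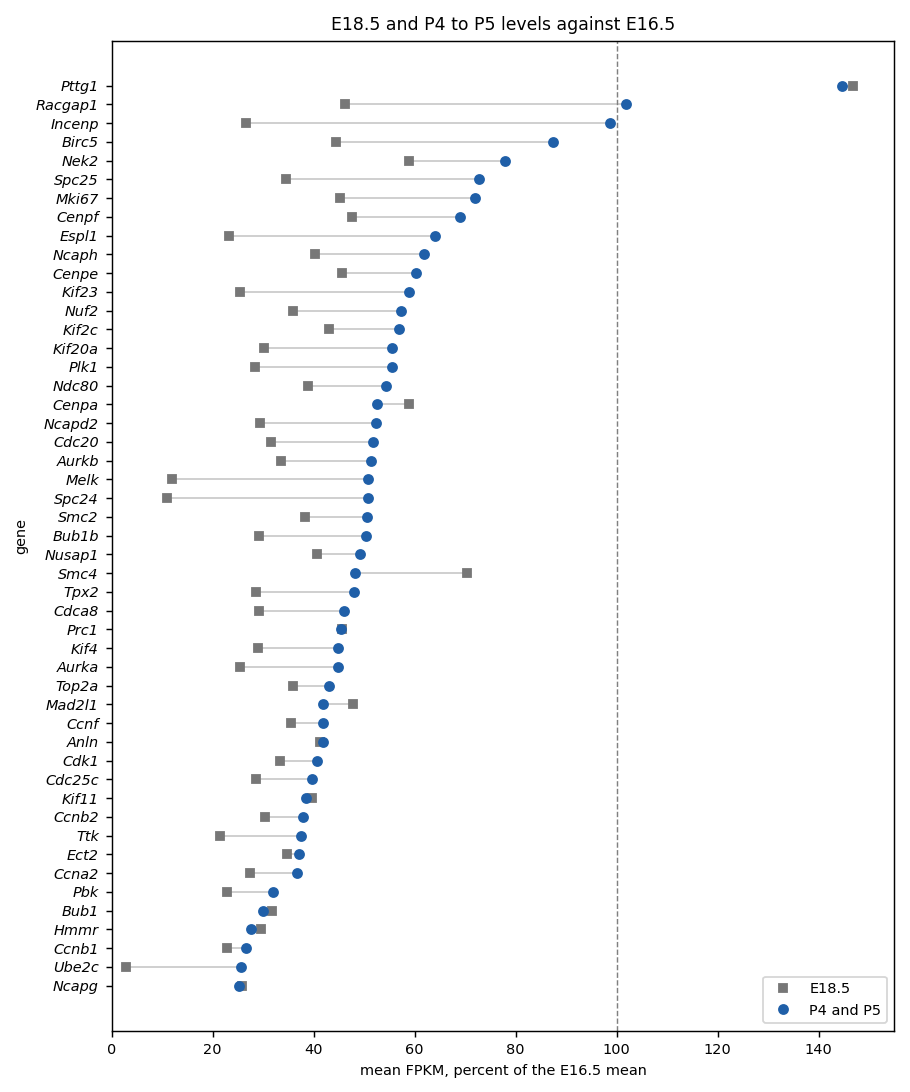
Mean FPKM of each member at E18.5 (grey squares, 2 animals) and at P4 and P5 (blue circles, 4 animals) as a percentage of its E16.5 mean (2 animals, dashed line at 100), with members in order of the P4 to P5 value. The circles run from 25.3% for Ncapg to 144.7% for Pttg1 and lie right of the squares in 40 of 49 members.

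The group P13.5-P15 stood below the group P4-P10, but much of the fall lay within P4-P10. The members' mean log2(FPKM + 1) by age was 4.195 at P4, 2.63 at P10, 1.795 at P13.5 and 2.613 at P15. From P4-P10 to P13.5-P15, 48 of the 49 members had a negative log2 change, with a median of -1.42 (2.68-fold) against -0.075 over all genes. Limma called 9 lower and none higher, against 1.9% and 0.917% of all genes, and 34 had an unadjusted p under 0.05. The 9 were Ccna2, Cdk1, the kinesins Kif11 and Kif4, the checkpoint kinase Ttk, the condensin I subunits Ncapd2 and Ncaph, Anln, the scaffold of the contractile ring, and Racgap1. None of the 4 passenger, 7 kinetochore, 4 spindle, 4 anaphase or 5 mitotic kinase genes was called. Their median log2 changes were -1.41, -1.73, -1.51, -0.698 and -1.26, where the cyclin and Cdk1 genes, with 2 called, had -1.06. All 7 kinetochore genes had an unadjusted p under 0.05. Being called or not thus does not rank the classes, and no difference between classes was tested.

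Ccna2 ran from 9.51 to 43.6 in P4-P10 (median 28.78) and stood at 0.836 and 5.01 at P13.5 and at 13.8 and 5.04 at P15, a log2 change of -2.18 ± 0.48 (adjusted p = 0.0108). Cdk1 ran from 1.93 to 26.8 and then was listed at 0 in both pups of P13.5 and stood at 3.40 and 1.75 at P15, a log2 change of -2.05 ± 0.52 (adjusted p = 0.0281). Racgap1 ran from 9.20 to 42.6 and then stood at 2.13, 2.70, 12.6 and 6.60, a log2 change of -1.97 ± 0.54 (adjusted p = 0.0421). Ttk, the kinase that starts the checkpoint signal, ran from 1.75 to 9.63 and then was listed at 0 in both pups of P13.5 and stood at 1.30 and 0.218 at P15, a log2 change of -1.86 ± 0.42 (adjusted p = 0.0118). In Ttk the groups did not overlap, while in the other 3 genes P15 pup c alone reached into the range of P4-P10. In both P13.5 libraries 9 and 8 members were listed at 0.

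P15 pup c stood apart in most members: Mki67 was 141.6 there and 36.7, 44.7 and 42.3 in the other 3 libraries of its group. Its 5 leukocyte markers summed to 355.5 FPKM, against 103.2 in its age mate and 63.5 to 112.5 at P13.5, and whether that has a part in the members' levels was not tested. The count of 9 was 24 without P0.5 pup f, P15 pup c and P28 pup c together, 14 without the 3 libraries rich in zeros and 19 in a fit of 15 ages. It was 15 without P10 pup f, and 1 to 5 without any of 8 others: either pup of P4, P5 or P13.5, P7 pup c and P15 pup e. It was 3 with quantile normalization, 3 with a pseudocount of 0.1, 2 with no filter on low values and 1 in a fit of only the 2 groups. In this comparison limma called 1 of 5 leukocyte markers higher (Ptprc, log2 change 1.52, adjusted p = 0.0115). Of 5 mesenchymal markers it called Pdgfra higher (0.892, adjusted p = 0.00246) and Col1a2 lower (-0.833, adjusted p = 0.00612). No marker of the other cell types was called, and the part of these markers in the members' change was not tested.

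From P13.5-P15 to P19-P28 limma called no member in either direction, against 0.0958% of all genes higher and 0.479% lower, and 8 had an unadjusted p under 0.05, all lower. The median log2 change was -0.562. In P19-P28 Mki67 was 15.4, 27.5, 9.13, 11.3 and 82.3, the last in P28 pup c. Top2a was 5.77, 5.91, 0.952, 4.37 and 24.8 in the same libraries. Cdc25c, the phosphatase that activates Cdk1, was listed at 0 in all 5. P28 pup c had leukocyte markers summing to 218.8 FPKM, against 81.3 to 105.1 at P19 and P23, and whether that has a part in its higher members was not tested. There is no second animal of P28 to compare.

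Over the whole course, from E16.5 to P19-P28, 47 of the 49 members were called lower, against 16.3% of all genes called lower and 10.9% higher. The median log2 change was -3.66 (12.66-fold) against -0.224 over all genes, and it was -3.60 after median ratio scaling and -3.49 after quantile normalization. Ccna2 fell from 117.0 and 95.9 to at most 2.94, listed at 0 in P19 pup d, a log2 change of -5.53 ± 0.66 (adjusted p = 3.38e-07). Ccnb1 fell from 42.5 and 51.7 to at most 3.24, listed at 0 in P19 pup f and P28 pup c (log2 change -4.93 ± 0.73, adjusted p = 9.09e-06). Top2a fell from 172.6 and 159.9 to at most 24.8 (log2 change -4.66 ± 0.73, adjusted p = 1.95e-05). Cdk1 fell from 29.8 and 39.6 to at most 2.02 (log2 change -4.60 ± 0.72, adjusted p = 1.74e-05), listed at 0 in both pups of P19. In all 4 genes the 5 late libraries lay below both embryos, as in 48 of the 49 members, an order that 23.4% of all genes tested had. Mad2l1 and Pttg1 were not called. Mad2l1 also stood lower, with a log2 change of -2.44 (adjusted p = 0.0554). Its FPKM was 19.4 and 11.4 at E16.5 against 10.2, 0, 1.59, 0.743 and 3.33 late. Pttg1 alone stood higher, with a log2 change of 0.97 (adjusted p = 0.166). Across these groups all 5 alveolar type 2 and all 5 endothelial markers were called higher. So were 4 of 5 type 1 markers, 3 of 5 leukocyte markers and 2 of 4 airway markers, while all 4 heart muscle markers were called lower. Of 5 mesenchymal markers 3 were called lower, as most members were, and 1 higher. Their part in the members' change was not tested.

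**Figure D5:**
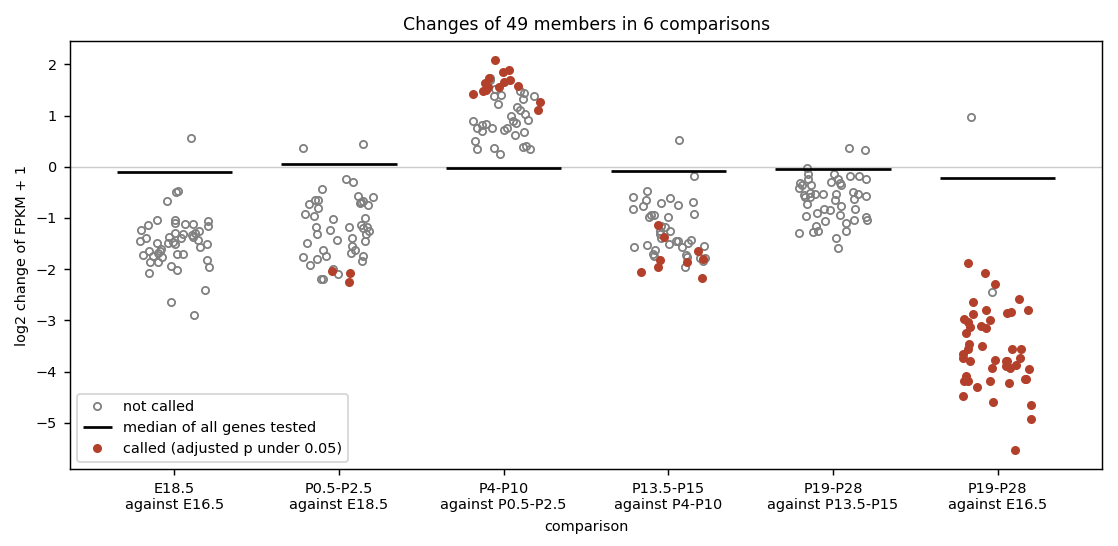
Log2 change of FPKM + 1 of the 49 members in the 6 comparisons, with called members filled, others open and a black line at the median of all genes tested. Of the members, 15 were called higher at P4-P10, 9 lower at P13.5-P15 and 47 lower from E16.5 to P19-P28, and 48 of 49 lay below 0 at E18.5 with none called.

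Ube2c and Pttg1 were set apart from the rest. Ube2c was low throughout, with 3.02 and 8.22 at E16.5, 0 and 0.331 at E18.5, 1.05 to 1.93 at P4 and P5 and 12.0 in P10 pup a, and was listed at 0 in 12 of the 29 libraries. Its exons overlap those of Tnnc2 on the opposite strand. Pttg1 had its highest values in P13.5 pup c (28.5) and P19 pup d (25.9) and its lowest in P2.5 pup h (3.78) and E16.5 embryo 2 (3.83). In all, 10 members overlap exons of a coding gene on the opposite strand, among them Ccna2 (with Exosc9), Kif4 (with Pdzd11) and Cdc20 (with Elovl1). The libraries kept strand, but how strand was set in the quantification is not given in the sources used here. Ccna2 lies at chr3:36564865-36573038, Mki67 at chr7:135689784-135716450, Birc5 at chr11:117849237-117855743, Racgap1 at chr15:99620496-99651656 and Pttg1 at chr11:43420244-43427463 in GRCm38.p6, and FPKM sums their annotated exons.

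Other genes of the cell cycle were read from lists beside the members. Of 67 further mitosis genes, limma's F test called 51, and of 40 genes of DNA replication 26, beside 33.1% of all genes. From E16.5 to E18.5 the replication genes had a median log2 change of -1.78, with 9 of 40 called lower beside 1.62% of all genes, where the members had -1.47 and none called. From E18.5 to P0.5-P2.5 the replication genes had a median of 0.043, with 21 above and 19 below 0 and none called, where the members had -1.23 with 47 of 49 below 0 and 3 called. From P0.5-P2.5 to P4-P10 they had a median of 0.621 with 2 called higher, where the members had 1.18 with 15 called. The group P0.5-P2.5 includes P0.5 pup f, where the replication genes' mean log2(FPKM + 1) was 3.604. That mean ran from 2.125 to 2.698 in the other pups of the group and was 2.538 and 2.782 at E18.5. These comparisons between lists share libraries, and the difference between the lists was not tested. Mcm3, a subunit of the replicative helicase, had group means of 63.2, 9.66, 12.7, 23.2, 11.5 and 8.50 from E16.5 to P19-P28, low already at E18.5. Mki67 had group means of 381.7, 172.3, 72.65, 193.3, 66.33 and 29.12 in the same order.

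Among 20 genes that regulate mitotic transcription or entry, 7 differed among the groups by the F test, a share close to the 33.1% of all genes. Foxm1, the forkhead factor that activates G2 genes, had group means of 17.7, 7.82, 4.50, 11.06, 3.16 and 1.35 from E16.5 to P19-P28 (F test adjusted p = 0.00164). Its mean over P4 and P5 was 16.7. Limma called it lower from E16.5 to P19-P28 (adjusted p = 0.00112), but did not call the rise to P4-P10 (0.124) or the fall to P13.5-P15 (0.143). It correlated with the member mean at r = 0.898 across the 29 libraries. E2f7 (r = 0.898, adjusted p = 1.42e-04) and E2f8 (r = 0.793, adjusted p = 0.00166), repressors of the E2F family, were also called by the F test. So were E2f3, Wee1, Nfya and the MuvB gene Rbbp4 (F test adjusted p = 1.63e-05). Mybl2, which encodes B-Myb, was not called by the F test (adjusted p = 0.0628). Nor were the other MuvB genes Lin9, Lin37, Lin52 and Lin54 (F test adjusted p = 0.182, 0.992, 0.769 and 0.0972). The F test also did not call the E2F family members E2f1, E2f2 and E2f4 (0.567, 0.176 and 0.317). The same held for Fzr1, Nfyb, Nfyc, Pkmyt1 and Tfdp1 (0.145, 0.803, 0.0667, 0.138 and 0.157). Of 14 brakes on the cell cycle that were tested, 4 were called higher and 2 lower from E16.5 to P19-P28. Of all genes, 10.9% were called higher and 16.3% lower. Cdkn1a, which encodes the inhibitor p21, rose from a mean of 1.84 to 13.9 (log2 change 2.51, adjusted p = 0.00142), and Cdkn1c, which encodes p57, fell from 213.9 to 36.0 (log2 change -2.56, adjusted p = 1.82e-06).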

How the data were processed

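Alveolar septa of 29 mice were sequenced from total RNA depleted of ribosomal RNA, in stranded libraries. Per the labels, the authors aligned reads to mm10 with STAR 2.5.1 and made the deposited FPKM values with Cufflinks 2.2.1; annotation and settings are not given in the sources used here. Read depth is unknown, so the spread between animals is the measure of precision. The matrix holds 24486 lines for 22779 gene IDs; 1226 IDs stand on several lines, of which the line with the highest mean was kept. Symbols, positions and promoter windows come from RefSeq tables of GRCm38.p6 (22718 IDs with a symbol).

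From the FPKM, log2(FPKM + 1) was computed for 14616 genes with 1 FPKM or more in 4 or more libraries. The 6 age groups were fitted together in limma 3.58.1 (R 4.3.3, moderated statistics with the prior variance following the mean), giving 6 comparisons and an F test, with Benjamini-Hochberg adjustment over all genes and a threshold of 0.05. The test was tested on simulated data. Tables were made with Python 3.11.15, numpy 2.4.6, pandas 2.3.3 and matplotlib 3.10.9.

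The members, classes, comparison lists and tests were chosen with earlier results of these data known. Members named with statistics are up to 4 called members per comparison and direction with the largest change, where the group with more had a mean of 1 FPKM or over. Values by age are given for these, for the highest member of a class and for members against the majority; others named by value (Nek2, Incenp, Ncapg, Hmmr, Bub1, Cdc25c, Plk1) were chosen after their values were seen. Outside the list, up to 4 genes per comparison list by F test, all 20 regulators and the 15 genes most like the member mean were taken. Alternatives were a pseudocount of 0.1, no filter, a filter at 5 FPKM, median ratio scaling, quantile normalization, a fit of 15 ages, only the 2 groups compared, the sum of lines per ID, a spline for the F test, leaving out the 3 libraries rich in zeros and leaving out each library. Leaving out P0.5 pup f, P15 pup c and P28 pup c together was added after seeing the data. They were picked for their high member values, which favours larger counts without them, so those counts are no independent support.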

Additional observations from a re-analysis of the deposited data

Results flagged for a closer look

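P0.5 pup f lay far from the other 7 libraries of P0.5-P2.5 in the mean log2(FPKM + 1) of the 49 members. Its mean was 3.971 where the others ran from 1.68 to 2.69, a gap of 0.557 of the group's range. Member by member, 12 of the 49 set this library apart in the same way. Its marker sums were 671.5 FPKM for alveolar type 1 cells, 928.1 for mesenchyme and 87.2 for leukocytes, against 779.9, 921.7 and 60.02 in its age mate, and their part was not tested.

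P28 pup c, the only animal of its age, lay far from the other 4 libraries of P19-P28. Its mean was 2.409 where the others ran from 1.32 to 1.40, a gap of 0.927 of the range. Member by member, 1 of the 49 (Pbk) set it apart in this way. Mki67 was 82.3 FPKM against 9.13 to 27.5 in the other 4, and Plk1 was 5.15 against at most 0.873, while Ccnb1, Ttk and Cdc25c were listed at 0 in it. Over genes outside the cell cycle lists it correlated best with P15 pup e (r = 0.894) and P15 pup c (0.889), ahead of P23 pup f (0.885). The limit is that of Dixon's ratio of gap to range, which chance passes in about 1 in 20 groups of independent draws from 1 normal distribution. These groups mix ages and the members correlate with each other, so that rate need not hold here. Of the 196 pairs of a member and a group, 27 passed the same limit.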

How the results depend on the processing

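Over the whole course the result held under all alternatives: 40 to 48 members were called lower from E16.5 to P19-P28 when each library was left out in turn, and 41 to 46 differed among the 6 groups, each within 1.5 times its count of 47 and 45. No direction was reversed. The counts of the shorter steps did not hold; the cause was not tested. From E16.5 to E18.5, 2 members were called lower in a fit of 15 ages. From E18.5 to P0.5-P2.5, 3 called lower became 0 with a pseudocount of 0.1 and 0 with no filter, 11 in a fit of 15 ages, 6 without the 3 libraries rich in zeros, 14 without P0.5 pup f, P15 pup c and P28 pup c, and 0 to 12 when each library was left out. From P0.5-P2.5 to P4-P10, 15 called higher became 2 with a pseudocount of 0.1, 1 with no filter, 24 in a fit of 15 ages, 9 with only the 2 groups compared, 27 without the 3 high libraries, and 1 to 27 without each library. From P4-P10 to P13.5-P15, 9 called lower became 3 with a pseudocount of 0.1, 2 with no filter, 3 with quantile normalization, 19 in a fit of 15 ages, 1 with only the 2 groups, 14 without the 3 libraries rich in zeros, 24 without the 3 high libraries, and 1 to 15 without each library. Of the 29 fits without 1 library, Ccnb1, Kif11 and Cenpf lost their call after birth in 16, 14 and 17, Birc5, Spc24 and Ccnb1 at P4-P10 in 10, 11 and 7, and Ccna2, Cdk1 and Racgap1 at P13.5-P15 in 1, 4 and 8, while Cenpf at P4-P10, Ttk at P13.5-P15 and the 4 members named from E16.5 to P19-P28 lost it in none. Where a group keeps 1 animal, that animal was assumed to vary like the others. No paired analysis was possible because the pup letters name animals within an age and pair none across ages. The lowest levels cannot be told from failed estimates listed at 0, and read depth is unknown.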

Other observations

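Outside the 49 members, the genes whose log2 levels followed the member mean most closely over the 29 libraries were Aspm (r = 0.972) and Stil (r = 0.966), which act at the spindle poles and centrioles. Of the 15 closest, Lmnb1 (0.945), Kif14, Ckap2l, Kif20b, Dlgap5, Arhgap11a and Kif15 also stand on the list of further mitosis genes, and Pola1 (0.941) and Rrm1 (0.925) on that of DNA replication. Rmdn3 (0.949), Aox3 (0.949), Neil3 (0.936) and Dtl (0.923) stand on neither. The mitosis genes Knl1, Sgo1 and Sgo2a were sought for the list of further mitosis genes but have no line in the matrix. They could therefore not be ranked. The genes that ran most nearly opposite were Arhgap31 (r = -0.881), Tns1 (-0.871), Mettl7a1 (-0.867), Itga3 (-0.866) and Thbd (-0.863), the last encoding the endothelial anticoagulant receptor thrombomodulin. These correlations describe 29 libraries that share an age course.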
